A study of Mus musculus with 5 samples.

Results

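Angptl4, Pdk4, Acot1, Cpt1a, Plin2, G0s2, Ppara, Fgf1 and Fabp1 are 9 of the 27998 genes counted in each library, and were taken by their gene symbol as genes of the PPAR-alpha and fasting response. They were read in droplet single-cell RNA profiles of kidneys from 5 C57BL/6j mice in which pristane, a hydrocarbon oil, had induced lupus-like disease. Mice given a fecal microbiota transplant (FMT) from MRL/MpJ donors (n = 3) were compared with mice given saline (n = 2), and all 5 mice carried the pristane disease. Age, sex and the time of treatment are not given in the sources used here, and letter codes in the sample titles differ between the groups, so anything that follows those codes and the treatment cannot be told apart. The genes were selected on earlier results of these libraries, of which the known value was a higher Angptl4 level in distal tubule cells of FMT mice; which other values chose the members is not recorded. That difference is therefore given as a description, and no support is drawn from it.

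PPAR-alpha is a nuclear receptor that binds fatty acids and forms a pair with RXR on DNA. In fasting it raises genes of fatty acid uptake, mitochondrial and peroxisomal oxidation and ketone body formation, best known in the liver. Proximal tubule cells of the kidney draw most of their energy from fatty acids and are also rich in PPAR-alpha, while distal tubule cells use glucose to a larger extent. The receptor's known targets include inhibitors of lipolysis as well as enzymes of oxidation, so that the gene group holds members with opposing roles.

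Each cell was assigned to a lineage by the unique molecular identifiers (UMIs) of marker genes, and a lineage is called here by its gate. S1 cells had Slc5a2 and Slc5a12, S2 cells had Slc22a6 and Slc22a8 (both segments of the proximal tubule), distal cells had Slc12a3, and intercalated cells, the acid-base regulating cells of the collecting system, had Atp6v1g3. Immune lineages were gated by Lyz2 (myeloid), S100a8 (neutrophil), Ms4a1 (B) and Cd3e (T). Of 21708 cells used, 15035 met 1 gate. The labels name tubular epithelial cells, but the libraries also held B, T and myeloid cells and neutrophils by their gates. The libraries held 15333445 to 45309178 UMIs in FMT mice and 23014001 to 25661559 in saline mice, and library pairs shared 3 to 12 barcodes. The proximal gates were close to each other, and 98 to 253 of the 1033 to 3174 proximal cells in a library lay within 1 UMI of the line between S1 and S2. Distal cells also held Calb1 (555 to 1727 CPM over the 5 mice) and Umod (1934 to 5219 CPM), while Slc12a1, the defining transporter of the thick ascending limb, stayed between 0 and 3.62 CPM. In S2 cells Slc22a7, an S2 marker, was at 0 to 2.51 CPM. The other S2 markers read were present there. Slc13a3 had 453 to 563 CPM (163 to 203 in S1 cells) and Slc17a1 had 195 to 281 CPM (182 to 276 in S1 cells). CPM is a gene's count per 1000000 UMIs of a lineage in 1 library.

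**Figure D1:**
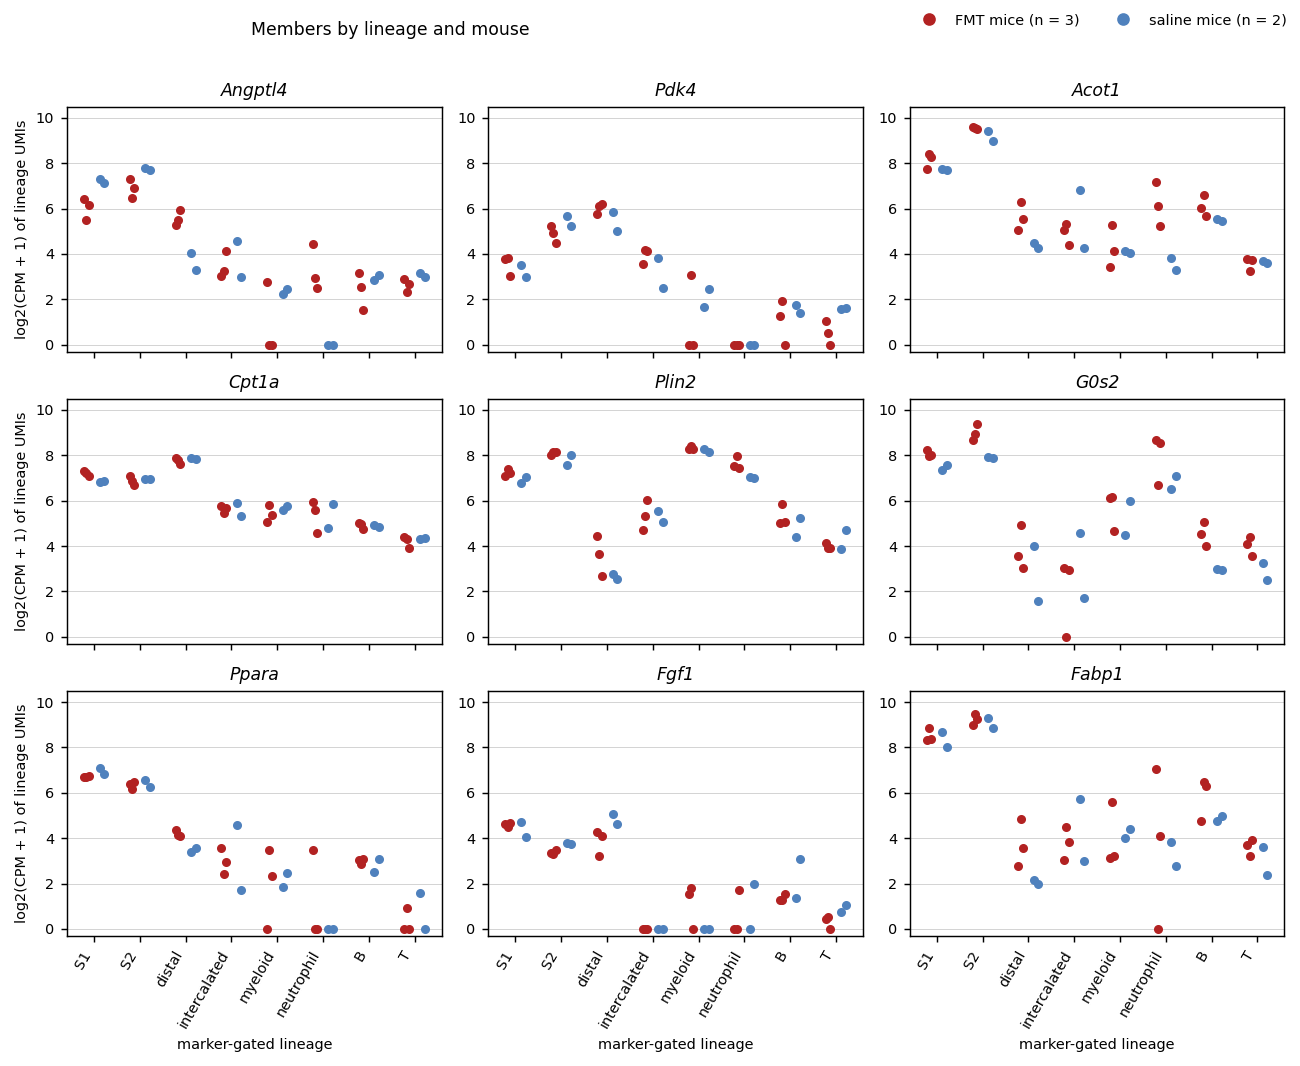
Level of each of the 9 genes in 8 marker-gated lineages, as log2(CPM + 1) of the lineage's UMIs, with 1 point per mouse (FMT mice, n = 3, left of saline mice, n = 2, in each lineage). Acot1 and Fabp1 stand highest in S2 cells, Cpt1a in distal cells, Plin2 in myeloid and S2 cells, and Pdk4 has no UMI in neutrophils of any mouse.

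Most transcripts of each gene came from the proximal tubule, and the genes split by lineage in their level. S2 cells held 74.0% of the 10987 Angptl4 UMIs, 73.5% of the 28959 G0s2 UMIs and 71.4% of the 52935 Acot1 UMIs of all cells used. They held the smallest share for Fgf1, 37.0% of 1433 UMIs. By median CPM over the 5 mice, Angptl4, Acot1, G0s2 and Fabp1 were highest in S2, Pdk4 and Cpt1a in distal cells, Plin2 in myeloid cells, and Ppara and Fgf1 in S1. The highest lineage was the same for 9 of 9 genes with stricter gates. These levels are given as a description, since it is not recorded which of them were known when the genes were chosen.

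Several steps in the order of lineages lay outside the spread between mice, and others did not. Acot1 had 732 CPM in S2 and 214 in S1, and Cpt1a had 231 in distal cells and 136 in S1 (medians), with no overlap of the 5 mice in either case. For Angptl4, 156.0 CPM in S2 and 85.1 CPM in S1 overlapped over the mice, although S2 was higher in 5 of 5 mice. Plin2 in myeloid cells (312 CPM) and S2 cells (256 CPM) overlapped likewise, with myeloid cells higher in 5 of 5 mice. Pdk4 in distal cells (57.6 CPM) and S2 cells (36.3 CPM) overlapped, with distal cells higher in 4 of 5 mice. Ppara had 106 CPM in S1, 83.3 in S2, 16.3 in distal cells and 7.20 in B cells, and none of these neighbours overlapped.

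Angptl4 (ENSMUSG00000002289, GRCm38 chromosome 17, 33773750 to 33781830, minus strand) encodes a secreted inhibitor of lipoprotein lipase, the enzyme that releases fatty acids from circulating triglycerides. It fell in S1 cells of FMT mice and had a higher level in their distal cells. In S1 cells Angptl4 had 85.1, 43.7 and 69.8 CPM in FMT mice, against 159 and 139.8 CPM in saline mice. In S2 cells it had 156.0, 87.8 and 120.4 CPM in FMT mice, against 220.5 and 208 CPM in saline mice. In distal cells it had 38.2, 44.5 and 59.7 CPM in FMT mice, against 15.3 and 8.78 CPM in saline mice. The groups did not overlap in any of these 3 lineages, and the distal order was opposite to the proximal one.

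**Figure D2:**
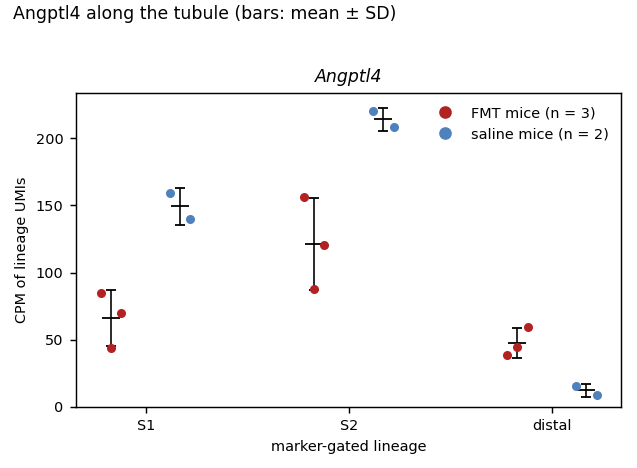
Angptl4 level in CPM of lineage UMIs in S1, S2 and distal cells, with 1 point per mouse and bars for mean ± SD (FMT n = 3, saline n = 2). FMT mice lie below both saline mice in S1 and S2 cells and above both in distal cells.

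The S1 difference had a log2 fold change of −1.24 ± 0.219 (SE), FMT over saline, with an edgeR quasi-likelihood adjusted p of 0.0233 over all genes tested. Angptl4 was the 1 gene called among 9 in S1 cells, where 0.293% of all genes tested passed (0.225% in the lower direction). Whether the proximal values were known when the genes were chosen is not recorded, so this call and count are given as a description. The call was lost without saline mouse 1 (adjusted p 0.544), without saline mouse 2 (0.209) and with a stricter gate (0.0773), while the fold change stayed between −1.53 and −0.98 in all 12 alternatives. In S2 cells the log2 fold change was −0.79 ± 0.230 with an adjusted p of 0.240, so it was not called, except without the low-count filter (0.00117). There 0 of 9 genes passed the edgeR test, against 0.0904% of all genes. An unadjusted edgeR p under 0.05 was found for 4 of 9, and for 1508 of all 11066 genes tested. DESeq2 called 1 of 9, and 83 of 11066. In distal cells the log2 fold change of Angptl4 was 2.08 ± 0.346, and it was the 1 gene that passed among 7 tested. The distal call was lost without saline mouse 2 (1.56, adjusted p 0.183) and with the stricter gate (1.72, adjusted p 0.111). All genes passed there at 0.208%, and nothing is read from this count because the difference was known when the genes were chosen.

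The difference between the effects of FMT on Angptl4 in distal and proximal cells rests on the distal values known when the genes were chosen. It is therefore given as a description, and no support is drawn from its test. In an edgeR model with the mouse as a block, the log2 fold change in distal cells was above that in S1 cells by 3.25 ± 0.339 (SE) and above that in S2 cells by 2.83 ± 0.338. In these comparisons 1 and 2 of 9 genes passed, Angptl4 in both, against 0.315% and 0.574% of all genes, and nothing is read from the count for Angptl4. The comparison with S2 cells was added after the levels had been seen. The S2 and S1 effects, which do not use distal cells, differed by 0.43 ± 0.155 (adjusted p 0.335), in a comparison in which 0 of 9 genes and 0.0979% of all genes passed edgeR and 1143 of 11233 genes had an unadjusted p under 0.05.

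**Figure D3:**
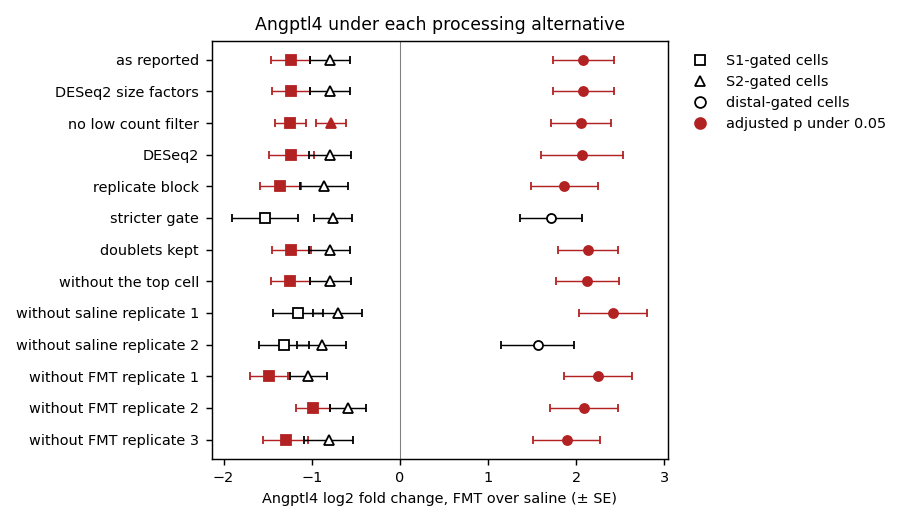
Log2 fold change of Angptl4, FMT over saline, with its SE, for S1, S2 and distal cells as reported and under 12 processing alternatives; filled symbols passed an adjusted p of 0.05. The points of S1 and S2 cells lie below 0 and those of distal cells above 0 in each alternative, while the S1 symbol is open in 3 alternatives and the distal symbol in 2.

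Shares of distal cells with Angptl4 come from the same UMIs as the distal difference that was known when the genes were chosen. They are given as a description, and no support is drawn from them. Angptl4 was seen in 10.8% (exact 95% interval 6.69 to 16.1), 21.0% (13.6 to 30.0) and 24.4% (15.8 to 34.9) of distal cells of FMT mice 1 to 3. In saline mice 1 and 2 it was seen in 8.13% (3.97 to 14.4) and 6.50% (3.76 to 10.3), so the interval of FMT mouse 1 overlaps with those of both saline mice and that of FMT mouse 2 with that of saline mouse 1. With each cell thinned to 1000 UMIs the shares were 2.89%, 4.13% and 5.72% in FMT mice, against 1.86% and 1.19% in saline mice, without overlap. B cells, which are not known for Angptl4, held it in 0.621% to 2.36% of cells in FMT mice and in 1.74% to 2.22% in saline mice. Median depths there were 2820 to 2829 and 2482 to 3551 UMIs per cell, against 4728 to 5833 and 6389 to 7412 in distal cells. The most UMIs in 1 distal cell were 7. Without the top cell the distal log2 fold change was 2.13. Intervals cover counting error only.

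In S1 cells the share of cells with Angptl4 was 32.4%, 19.0% and 26.1% in FMT mice, against 45.1% and 51.3% in saline mice. Thinned to 1000 UMIs it was 8.53%, 5.28% and 7.59% in FMT mice, against 15.98% and 13.7% in saline mice. In S2 cells the thinned share was 15.5%, 9.45% and 12.9% in FMT mice, against 21.9% and 20.1% in saline mice. The groups were apart in both segments, as in the summed levels.

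Markers of other cells were read beside the distal difference. The 10 proximal tubule markers together had 21.7 to 134 CPM in distal cells of FMT mice and 56.6 to 68.1 in those of saline mice. Of these, 7 of 10 were higher in FMT, 0 were called, and Slc22a7 was at 0. The 10 include the S1 and S2 gate genes, which the gates together hold under 3 UMIs in a distal cell. The Angptl4 level of distal cells was 26.4%, 60.3% and 54.7% of that of proximal cells in FMT mice, against 7.47% and 4.65% in saline mice. For the proximal genes Slc34a1, Gatm and Lrp2, which are not gate genes, the same ratio was 0% to 5.70% in FMT mice and 0.388% to 1.16% in saline mice. It was highest for Gatm, at 5.70%, 1.87% and 0% in FMT mice, against 0.529% and 0.503% in saline mice, and for Slc34a1 it was 1.51%, 1.08% and 0.315% in FMT mice, against 1.14% and 0.735% in saline mice. The S2 markers alone had 7.24 to 16.5 CPM in distal cells of FMT mice and 3.52 to 5.85 in those of saline mice, without overlap, and their part in the result was not tested. Adipoq, Plin1 and Cidec, which mark adipocytes, were at 0 in distal cells of all 5 mice. The other adipocyte marker read, Fabp4, had 0 to 0.978 CPM there in FMT mice and 0.488 to 4.70 CPM in saline mice. Thick ascending limb markers summed to 2795 to 4281 CPM in FMT mice and 5913 to 7024 in saline mice, and their part in the result was not tested. Erythroid genes summed to 3.91 to 326.5 CPM in distal cells of FMT mice and 1502 to 4206 in saline mice, with 2 of 2 genes called, and to 5.08 to 295 and 260.4 to 4724 CPM in S1 cells. Their part was not tested either.

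In the other lineages Angptl4 was sparse. T cells had 6.36, 4.08 and 5.34 CPM in FMT mice, against 7.84 and 6.84 CPM in saline mice, with a log2 fold change of −0.41 ± 0.429 and an edgeR adjusted p of 0.952. B, intercalated, myeloid and neutrophil cells held 36, 19, 12 and 5 UMIs over the 5 mice, and Angptl4 did not pass the low-count filter there. In neutrophils of both saline mice it had 0 UMIs in 195 cells, which allows up to 1.54% of cells with a UMI.

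G0s2 (ENSMUSG00000009633, chromosome 1, 193272161 to 193273217, minus strand) encodes an inhibitor of adipose triglyceride lipase, which breaks down stored triglycerides. It had higher levels in FMT mice in the proximal tubule, in B cells and in T cells, without passing the test. In S2 cells G0s2 had 413, 494 and 658 CPM in FMT mice, against 242 and 236 CPM in saline mice. In S1 cells it had 304, 246 and 259 CPM in FMT mice, against 165 and 191 CPM in saline mice. All FMT mice lay above both saline mice in the 2 segments. The log2 fold change was 1.15 ± 0.223 in S2 cells, with an edgeR adjusted p of 0.124, and 0.54 ± 0.175 in S1 cells, with 0.407. In S2 cells the call depended on the tool, since DESeq2 gave an adjusted p of 8.9e-05 and edgeR without the low-count filter 1.52e-06. Over the 12 alternatives the S2 value ranged from 0.92 to 1.28. The test of the difference between S2 and S1 gave 0.55 ± 0.183 with an adjusted p of 0.280, which passed without saline mouse 1 (0.0433) or FMT mouse 1 (0.0100).

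The share of S2 cells with G0s2 followed the same order. It was 83.3%, 79.5% and 81.1% in FMT mice, against 60.6% and 62.6% in saline mice, and after thinning to 1000 UMIs 30.8%, 34.0% and 41.0% in FMT mice, against 19.9% and 18.7% in saline mice. B cells had 22.3, 32.7 and 15.01 CPM of G0s2 in FMT mice, against 6.97 and 6.60 CPM in saline mice (log2 fold change 1.83 ± 0.388, edgeR adjusted p 0.207). T cells had 15.9, 19.96 and 10.7 CPM in FMT mice, against 8.50 and 4.74 CPM in saline mice (1.40 ± 0.374, adjusted p 0.375). In both lymphocyte lineages the groups were apart, on 103 and 117 UMIs in all. Called genes made up 0.0123% of those tested in B cells and 0.0776% in T cells, with 0 of 5 and 0 of 6 genes of the group among them by edgeR. DESeq2 called 0 of the group in both, and 10 of all genes in each. In edgeR 3 of 5 and 1 of 6 had an unadjusted p under 0.05, beside 591 of 8163 and 500 of 9016 of all genes. G0s2 passed with the replicate number as a block in B (adjusted p 0.00113) and T cells (0.0299), and without the low-count filter in B (0.00081) and T cells (0.0263). Proximal marker sums were 116 to 273 CPM in B cells of FMT mice, against 212 to 277 in those of saline mice. These sums include the S1 and S2 gate genes, which the gates together hold under 3 UMIs in a B cell. Myeloid markers summed to 598 to 704 CPM in B cells of FMT mice and 367 to 485 CPM in those of saline mice, with 5 of 6 higher in FMT and 0 called, while neutrophil markers had 5.76 to 46.9 and 35.5 to 88.3 CPM. In T cells myeloid markers had 198 to 268 CPM in FMT mice and 326 to 329 CPM in saline mice. The part of these cells in the G0s2 levels was not tested.

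G0s2 was named for its induction in human blood mononuclear cells that leave the resting state. Neutrophils had 409.8, 101 and 369 CPM in FMT mice, against 89.5 and 136 CPM in saline mice. FMT mouse 2 lay between the saline mice, so the groups overlapped. The log2 fold change was 1.30 ± 0.459 with an edgeR adjusted p of 0.214 (0.0472 without the low-count filter). Distal cells held 50 G0s2 UMIs in all, and 1 cell gave up to 53.8% of a library's UMIs there. Their log2 fold change of 1.25 ± 0.672 went from −0.02 to 2.95 when single mice were left out.

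**Figure D4:**
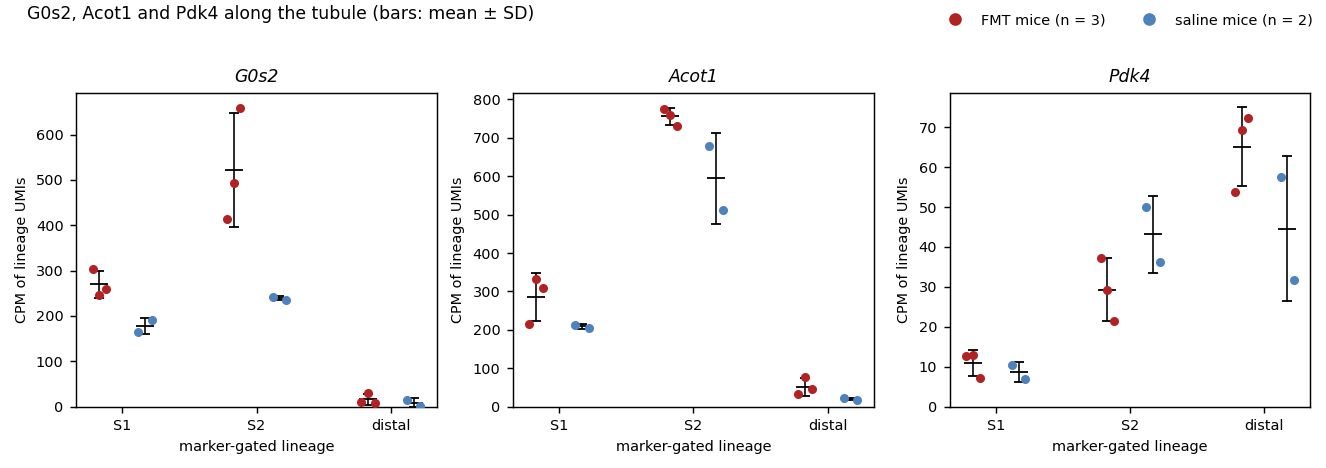
Levels of G0s2, Acot1 and Pdk4 in CPM of lineage UMIs in S1, S2 and distal cells, with 1 point per mouse and bars for mean ± SD (FMT n = 3, saline n = 2). FMT mice lie above both saline mice for G0s2 in S1 and S2 cells and for Acot1 in S1, S2 and distal cells. The groups overlap for Pdk4.

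Plin2 (ENSMUSG00000028494, chromosome 4, 86648386 to 86670060, minus strand) encodes a coat protein of lipid droplets. Its level was close between the groups in the lineage where it was highest. Myeloid cells had 313, 344 and 309.9 CPM in FMT mice, against 312 and 281 CPM in saline mice, and the groups overlapped (log2 fold change 0.02 ± 0.235, edgeR adjusted p 0.999). In S2 cells Plin2 had 256, 287 and 283 CPM in FMT mice, against 191 and 254 CPM in saline mice. The lowest FMT mouse was just above the higher saline mouse (0.34 ± 0.160, adjusted p 0.391). Neutrophils had 184, 250.1 and 170.5 CPM in FMT mice, against 133 and 127 CPM in saline mice, apart but not called (0.51 ± 0.302, adjusted p 0.459). Of the last 500 bases of Plin2 transcripts, 2.66% of 60-base words also occur in the predicted gene Gm12551. In distal cells Plin2 did not pass the low-count filter, with 46 UMIs.

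Acot1 (ENSMUSG00000072949, chromosome 12, 84009490 to 84018371, plus strand) encodes a cytosolic thioesterase that splits acyl-CoA into free fatty acid and coenzyme A. In distal cells it had 32.3, 77.5 and 45.2 CPM in FMT mice, against 21.1 and 18.0 CPM in saline mice. All 3 FMT mice were above both saline mice, on 160 UMIs in all, with a log2 fold change of 1.40 ± 0.339 and an edgeR adjusted p of 0.166. It passed without the low-count filter (0.00221), with doublets kept (0.0415), without FMT mouse 1 (0.00812) and without FMT mouse 3 (0.0488). In S2 cells Acot1 had 775, 761 and 732 CPM in FMT mice, against 679 and 511 CPM in saline mice (0.36 ± 0.193, adjusted p 0.440). In S1 cells it had 214, 334 and 309 CPM in FMT mice, against 213 and 205 CPM in saline mice (0.40 ± 0.203, adjusted p 0.861). All FMT mice were above both saline mice in S2 and S1 cells as well, in S1 cells narrowly (214 against 213 CPM). The difference of the effects between distal and S1 cells was 1.00 ± 0.280 with an adjusted p of 0.244.

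In neutrophils Acot1 had 143, 67.6 and 36.9 CPM in FMT mice, against 13.3 and 8.85 CPM in saline mice. The groups were apart, on 51 UMIs in all, with a log2 fold change of 2.39 ± 0.587 and an edgeR adjusted p of 0.111. A single neutrophil gave up to 40% of a library's Acot1 UMIs in this lineage. Of the 4 genes tested in neutrophils, 0 were called by edgeR, against 0.609% of all genes. An unadjusted edgeR p under 0.05 was found for 2 of 4, and for 518 of all 3448 genes tested. DESeq2 also called 0 of 4, and 40 of 3448. Without FMT mouse 3, Acot1 passed in neutrophils (adjusted p 0.0163), and with the replicate number as a block (2.98, adjusted p 0.000219). Proximal markers moved with it, since their sum in neutrophils was 142 to 359 CPM in FMT mice and 81.2 to 106 CPM in saline mice, with 8 of 10 higher in FMT and 0 called. That sum includes the S1 and S2 gate genes, which the gates together hold under 3 UMIs in a neutrophil. Myeloid markers had 6915 to 9703 CPM in neutrophils of FMT mice and 5861 to 5887 CPM in those of saline mice, and their part and that of the proximal markers were not tested. Acot1 values are uncertain in every lineage, because 27.0% of the 60-base words in the last 500 bases of its transcripts are shared with its neighbour Acot2.

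Cpt1a (ENSMUSG00000024900, chromosome 19, 3322334 to 3385733, plus strand) encodes the enzyme of the outer mitochondrial membrane that sets the rate of fatty acid entry into mitochondria. In distal cells, where it was highest, it had 237, 218 and 194 CPM in FMT mice, against 235 and 231 CPM in saline mice, and the groups overlapped (log2 fold change −0.09 ± 0.182, edgeR adjusted p 1.00). In S1 cells it had 156, 148 and 136 CPM in FMT mice, against 111 and 115 CPM in saline mice. These groups were apart by 0.32 ± 0.159, which was not called (adjusted p 0.861). In S2 cells the values of 133, 117 and 101 CPM in FMT mice lay around those of 124 and 125.0 CPM in saline mice.

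Fabp1 (ENSMUSG00000054422, chromosome 6, 71199827 to 71205023, plus strand) encodes a fatty acid binding protein of the cytosol that carries fatty acids to PPAR-alpha. In S2 cells it had 504, 717 and 616 CPM in FMT mice, against 627 and 463 CPM in saline mice, with overlap (log2 fold change 0.18 ± 0.216, edgeR adjusted p 0.741). In S1 cells it had 318, 458 and 329.6 CPM in FMT mice, against 406 and 257 CPM in saline mice (0.10 ± 0.217, adjusted p 1.00). In distal cells it held 38 UMIs and did not pass the filter, although the FMT mice, at 5.87, 28.0 and 10.9 CPM, were above both saline mice, at 3.52 and 2.93 CPM. A single distal cell gave up to 58.8% of a library's Fabp1 UMIs. The distal Fabp1 level was 1.24%, 4.41% and 1.97% of that of proximal cells in FMT mice, against 0.619% and 0.726% in saline mice. In distal cells the S2 marker sum was also higher in every FMT mouse, while the sum of the 10 proximal markers overlapped. The part of proximal RNA in the distal Fabp1 values was not tested. The test of distal against S1 effects over both lineages gave 1.89 ± 0.511 with an edgeR adjusted p of 0.200, and 0.00877 without FMT mouse 1.

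Pdk4 (ENSMUSG00000019577, chromosome 6, 5483351 to 5496309, minus strand) encodes a kinase that switches off pyruvate dehydrogenase and so spares glucose. In distal cells it had 53.8, 69.3 and 72.4 CPM in FMT mice, against 57.6 and 31.7 CPM in saline mice. FMT mouse 1 lay between the saline mice, and the log2 fold change was 0.62 ± 0.275 with an edgeR adjusted p of 1.00. In S2 cells Pdk4 had 37.1, 29.2 and 21.4 CPM in FMT mice, against 50.01 and 36.3 CPM in saline mice (−0.52 ± 0.230, adjusted p 0.366), again with overlap. The difference of the effects between distal and S2 cells was 1.08 ± 0.273 with an adjusted p of 0.0160, in the test added after the levels had been seen. It passed without FMT mouse 1 (0.00338) but not without any other single mouse (0.0660 to 0.583) or with the stricter gate (0.776). Neutrophils held 0 Pdk4 UMIs in 392 cells, which allows up to 0.765% of cells with a UMI.

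Ppara (ENSMUSG00000022383, chromosome 15, 85734983 to 85802819, plus strand) encodes PPAR-alpha itself. In S1 cells it had 102, 102 and 106 CPM in FMT mice, against 137 and 111 CPM in saline mice. The FMT mice lay close to each other below both saline mice, with a log2 fold change of −0.32 ± 0.162 that was not called (edgeR adjusted p 0.861). In S2 cells the groups overlapped, at 83.3, 70.5 and 88.1 CPM in FMT mice, against 92.6 and 75.8 CPM in saline mice. In distal cells Ppara had 19.6, 16.5 and 16.3 CPM in FMT mice, against 9.40 and 10.7 CPM in saline mice. These values were apart, on 69 UMIs, with a log2 fold change of 0.80 ± 0.394 and an adjusted p of 1.00. The difference of the effects between distal and S1 cells was 1.07 ± 0.352 (adjusted p 0.437).

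Fgf1 (ENSMUSG00000036585, chromosome 18, 38838673 to 38929472, minus strand) encodes a fibroblast growth factor that in mouse adipose tissue is controlled by PPAR-gamma. In distal cells it had 18.6, 8.25 and 16.3 CPM in FMT mice, against 32.9 and 23.4 CPM in saline mice. All FMT mice were below both saline mice, on 109 UMIs, with a log2 fold change of −0.84 ± 0.361 and an edgeR adjusted p of 1.00. In S2 cells it had 9.12, 8.995 and 10.2 CPM in FMT mice, against 12.7 and 12.6 CPM in saline mice (−0.42 ± 0.172, adjusted p 0.340). In S1 cells the groups overlapped. Intercalated cells held 0 Fgf1 UMIs in 689 cells, which allows up to 0.435% of cells with a UMI.

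**Figure D5:**
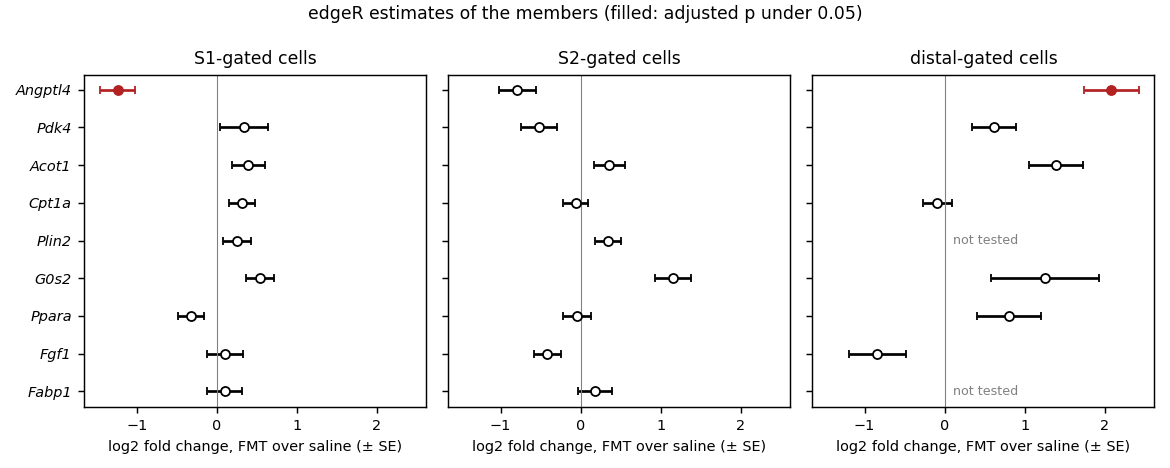
EdgeR log2 fold changes, FMT over saline, with their SE for the 9 genes in S1, S2 and distal cells; filled points passed an adjusted p of 0.05, and genes that did not pass the low-count filter are marked. Angptl4 is the filled point in S1 cells (−1.24) and in distal cells (2.08), and no point is filled in S2 cells.

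Over the group as a whole, groups of mice that did not overlap were more frequent than calls. In S1 cells 9 of 9 genes passed the low-count filter, of which 4 were higher in every FMT mouse and 2 lower; of all genes tested, 13.4% were higher and 7.54% lower in this way. In S2 cells 3 of 9 were higher and 2 lower, against 14.1% and 17.4% of all genes. In distal cells 3 of 7 tested were higher and 1 lower, against 7.52% and 9.43%. The remaining 2, Plin2 and Fabp1, did not pass the filter. In neutrophils 2 of 4 tested were higher and 0 lower, against 17.1% and 15.2% of all genes. In B cells 2 of 5 were higher and 0 lower, against 12.5% and 10.2%, and in T cells 1 of 6 was higher and 1 lower, against 8.14% and 13.4%. Of the 3 genes tested in intercalated and in myeloid cells, 0 were apart. All genes there were higher at 9.47% and lower at 5.72% in intercalated cells, and at 13.2% and 5.03% in myeloid cells. EdgeR and DESeq2 called 0 of these in either lineage, and none had an unadjusted p under 0.05. Of all genes, edgeR called 0% in intercalated and 0.0547% in myeloid cells, with 93 and 275 genes at an unadjusted p under 0.05.

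The promoters were searched for the DNA element of PPAR-alpha, a direct repeat of AGGTCA with 1 base between the copies. Sequences of 250 bases before the start were at hand for 7 of the 9 genes, from RefSeq on GRCm38.p6; Angptl4 and Fgf1 are named only. On both strands 0 of the 7 held the full repeat AGGTCANAGGTCA, as did 0.0335% of 32851 promoters of the same length. Fabp1 held a relaxed form, AGGNCANAGGNCA, which 0.338% of all promoters held. A single half-site AGGTCA was found in Fabp1, Cpt1a and Plin2, and in 14.0% of all promoters. The 3 promoters with a match and that of G0s2, the gene with the largest S2 difference, are shown 5′ to 3′ on the gene's strand, with the matched bases in capitals; the relaxed repeat of Fabp1 overlaps with 1 of its 2 half-sites.
Fabp1, chr6:71199629-71199878, plus strand: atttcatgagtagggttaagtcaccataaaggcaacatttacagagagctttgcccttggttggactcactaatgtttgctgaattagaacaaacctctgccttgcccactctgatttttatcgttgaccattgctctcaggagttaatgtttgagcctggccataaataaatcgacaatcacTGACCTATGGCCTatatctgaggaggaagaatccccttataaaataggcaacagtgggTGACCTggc
Cpt1a, chr19:3323051-3323300, plus strand: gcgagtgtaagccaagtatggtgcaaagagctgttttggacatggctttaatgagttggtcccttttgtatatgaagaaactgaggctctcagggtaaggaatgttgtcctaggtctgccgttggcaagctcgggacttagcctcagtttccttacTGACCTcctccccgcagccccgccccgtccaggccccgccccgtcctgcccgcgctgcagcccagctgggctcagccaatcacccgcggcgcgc
Plin2, chr4:86670060-86670309, minus strand: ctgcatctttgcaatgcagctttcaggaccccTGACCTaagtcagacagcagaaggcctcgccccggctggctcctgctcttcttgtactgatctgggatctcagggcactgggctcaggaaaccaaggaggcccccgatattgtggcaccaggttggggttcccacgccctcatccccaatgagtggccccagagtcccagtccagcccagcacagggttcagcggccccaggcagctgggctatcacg
G0s2, chr1:193273189-193273438, minus strand: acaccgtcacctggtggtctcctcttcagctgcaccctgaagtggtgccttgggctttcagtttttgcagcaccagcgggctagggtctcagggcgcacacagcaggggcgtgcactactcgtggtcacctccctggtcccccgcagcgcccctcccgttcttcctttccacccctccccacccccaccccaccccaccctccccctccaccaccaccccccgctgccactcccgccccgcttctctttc

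In Fabp1 the relaxed repeat ran from position −67 to −55 before the start and the second half-site from −9 to −4, all on the minus strand of the gene. The half-site of Cpt1a lay at −94 to −89 and that of Plin2 at −218 to −213. Pdk4, Acot1, G0s2 and Ppara held no match in this window. A match is a description of letters, and a lack of one says nothing beyond these 250 bases.

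Other genes of the pathway were read from lists, of which edgeR called few and DESeq2 more on 1 list. Of 32 PPAR-alpha target genes of fatty acid oxidation, 27 were tested in distal cells, where 25 had a positive and 2 a negative log2 fold change, with a median of 0.27, against 0.01 for all genes. The median of this list was positive in 8 of 8 lineages (0.09 to 0.50), which share libraries. It had 24 of 32 positive values in S1 and in S2 cells, with medians of 0.09 and 0.12 and 0 edgeR calls. Each tool called 1 test on this list over all lineages, but the edgeR call did not pass in DESeq2. Summed over lineages 31 of 207 tests had an unadjusted p under 0.05 in edgeR. Of all genes tested, 636 of 10226 in S1, 1508 of 11066 in S2 and 367 of 8176 in distal cells had such a p. In intercalated, myeloid and neutrophil cells 93 of 4320, 275 of 5483 and 518 of 3448 had one. In B and T cells the counts were 591 of 8163 and 500 of 9016. These counts over all genes apply beside each list below as well. The 3 smallest p-values in S2 cells were those of Slc22a5, a carnitine carrier (−0.54), Ech1 (0.54) and Acads (0.48), the last 2 of them enzymes of oxidation.

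Genes that answer to fasting hormones, through FoxO factors, CREB and the glucocorticoid receptor, had a negative median in 8 of 8 lineages (−0.72 to −0.14), with FMT over saline. Of 21 on this list, 16 were tested in S1 cells, and 10 of these had a negative log2 fold change, with a median of −0.29, against −0.0015 for all genes. Summed over lineages 37 of 101 tests had an unadjusted p under 0.05 in edgeR, which called 1, while DESeq2 called 9, of which 3 were in S2 and 3 in B cells. Over all genes DESeq2 called 83 of 11066 in S2 and 10 of 8163 in B cells. Foxo3, a transcription factor that insulin keeps out of the nucleus, fell in S1 cells. It had 54.6, 39.3 and 54.9 CPM in FMT mice, against 91.9 and 92.0 CPM in saline mice, with a log2 fold change of −0.96 ± 0.176 and an edgeR adjusted p of 0.0244. The call was lost without saline mouse 1 (0.354), saline mouse 2 (0.263) or FMT mouse 2 (0.108) and with a stricter gate (0.412). In distal cells Foxo3 had −0.80 ± 0.206 (adjusted p 0.214). Pck1, a rate-limiting enzyme of gluconeogenesis that is abundant in the proximal tubule, had 1.85 ± 0.403 in distal cells (adjusted p 0.0689), with overlap of the groups. Fkbp5, a glucocorticoid-induced co-chaperone, had −1.98 ± 0.340 in myeloid cells (adjusted p 0.127), −1.79 ± 0.305 in B cells (0.112) and −1.13 ± 0.216 in T cells (0.0925).

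Of 29 genes of lipid uptake, transport and droplets, 0 passed edgeR in any lineage. Summed over lineages 13 of 119 tests had an unadjusted p under 0.05 in edgeR, and DESeq2 called 1. Their median was 0.06 in S1, −0.02 in S2 and 0.05 in distal cells. Angptl8, a secreted regulator of lipoprotein lipase, had 12.0 CPM in FMT mice and 5.83 in saline mice in S2 cells (means), with a log2 fold change of 1.02 ± 0.239 and an adjusted p of 0.198. Lpl itself, the enzyme that Angptl4 inhibits, had 264 CPM in FMT mice and 343 in saline mice in distal cells (−0.36 ± 0.190, adjusted p 1.00). The 15 receptors, partners and coregulators of PPAR had 0 calls by edgeR and DESeq2 and 2 of 80 tests with an unadjusted p under 0.05 in edgeR, with 12 of 13 tested negative in S2 cells (median −0.14) and 10 of 12 in distal cells (median −0.23). Among them Ppargc1a, a coactivator of mitochondrial genes, had 199.7 CPM in FMT mice and 310.3 in saline mice in distal cells (−0.62 ± 0.193, adjusted p 0.520). The pyruvate dehydrogenase complex and its kinases (12 genes) and the FGF receptors and co-receptors (6 genes) also had 0 calls by both tools, with 2 of 73 and 1 of 12 edgeR tests at an unadjusted p under 0.05. Of the FGF receptor genes, 3 of 5 tested in S2 cells were lower in every FMT mouse, against 17.4% of all genes.

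Genes whose level followed that of each member were ranked by Pearson r of log2(CPM + 1) over 40 profiles of 8 lineages in 5 mice, among 8568 genes. The profiles share libraries and lineages, so r describes the lineage pattern. Nearest to Angptl4 were Prnp (0.91), Macrod2 (0.89) and Slc22a5 (0.88). Near to Acot1 were Ttc36 (0.95) and Hrsp12 (0.94), and nearest to Fabp1 were Folr1 (0.95), Calml4 and Fmo1 (0.94 each). Pdk4 was nearest to Hoxb2 (0.94), Tead1 (0.93) and Hoxb8 (0.92), and Cpt1a to Kl (0.93), Lgr4 (0.92) and Mcur1 (0.91). Ppara was nearest to Dbi (0.95), Chpt1 and Trp53bp2 (0.94 each), and Fgf1 to Vldlr (0.94), Pvrl3 and Spsb4 (0.88 each). G0s2 was nearest to Ndel1 (0.89), Gk (0.87) and Preb (0.85), and Plin2 to Sap30 (0.91), Cd302 (0.90) and Gpx1 (0.88).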

How the data were processed

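Droplet single-cell RNA libraries of 5 kidneys were used. The authors deposited raw UMI counts per gene and barcode for each library. Cell Ranger 2.1.1 and mm10 are named in the submitters' processing notes, whereas version 4.0.0 stands in the matrix headers; which of them made the matrices is not known here. The labels describe 10x libraries, yet their extraction text names a total RNA kit.

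Barcodes needed 200 genes or more and a mitochondrial share below 50%, which 22591 of 26237 met. Scrublet in scanpy 1.11.5 scored doublets per library, and 0.8% per 1000 cells were removed, 883 in all. A cell was gated if it met 1 lineage's gate: at least 3 UMIs of the S1 and S2 genes together, with the larger count deciding, 5 of Slc12a3, 5 of Atp6v1g3, 5 of Lyz2 with under 20 of S100a8, 20 of S100a8, 1 of Ms4a1 or 1 of Cd3e. The cutoffs were set on the gate genes' own counts after the files were seen. They left 6084 cells with no gate, 382 with several and 207 with a tie of S1 and S2. Gate genes are not used as results.

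UMIs were summed per library and lineage (at least 20 cells), and every gene past the low-count filter entered a quasi-likelihood F test (edgeR 4.0.16 on R 4.3.3, TMM scaling), with Benjamini-Hochberg adjustment over all genes at 0.05. An interaction term, with mice as blocks, tested differences between lineages. Alternatives were DESeq2 1.42.0, its size factors, no filter, the replicate number as a block, a stricter gate (2 times the minimum and no UMI of another lineage's gate genes, except Lyz2 in neutrophils), doublets kept, the top cell left out and each mouse left out. The fits were tested on simulated data. Coordinates came from GENCODE M21 (27645 of 27998 identifiers matched). The p-values refer to the spread among these 5 mice.

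All 9 genes were named in every lineage. Of each pathway list, called genes, and otherwise up to 3 with the smallest p per lineage, could be named. For each of the 9 genes the 3 genes with the highest Pearson r among those with a mean of at least 10 CPM were named. Some results of list genes are not reported here. The genes, lists and tests were chosen with earlier results of these data known.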

Additional observations from a re-analysis of the deposited data

Results flagged for a closer look

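The log2 fold change of Angptl4, FMT over saline, was higher in distal than in S1 cells by 3.25, and in distal than in S2 cells by 2.83. It was higher in distal than in T cells by 2.49, since in T cells all FMT mice lay below both saline mice and in distal cells all lay above them; that difference was not tested. All of these rest on the distal values that were known when the genes were chosen, so they are descriptions and no support is drawn from them. The effect of FMT on Pdk4 was higher in distal than in S2 cells by 1.08 in the edgeR interaction test, although the FMT and saline mice overlapped in each of the lineages. The comparison with S2 cells was added after the levels had been seen.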

How the results depend on the processing

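Counts of called genes moved with the settings, and where a value changed the cause was not tested, apart from the fewer cells or mice that a stricter gate or a left-out mouse brings by construction. Without the low-count filter the counts were 153 in S1, 343 in S2, 71 in distal, 36 in intercalated, 99 in myeloid, 159 in neutrophil, 151 in B and 141 in T cells, against 30, 10, 17, 0, 3, 21, 1 and 7 as reported, and of the 9 genes 2 were called in S2, distal, neutrophil and B cells each and 1 in T cells. DESeq2 called 83 in S2, 8 in distal, 7 in myeloid, 40 in neutrophil and 10 in B cells, and 1 of the 9 genes in S2 cells. The stricter gate gave 12 in S1, 18 in S2, 1 in distal, 30 in myeloid, 4 in B and 0 in T cells, with 0 of the 9 genes called in S1 and distal cells and 1 in the comparison of distal with S2 cells; in S1 cells it left 4 libraries. With doublets kept 4 genes were called in S2 and 4 in B cells, and 2 of the 9 genes in distal cells.

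Replicate numbers 1 and 2 occur in both groups. Same-numbered libraries correlated in their deviations from the group means at −0.496 to 0.197 over the lineages. The deviations of the 2 saline mice are opposites by construction, so these values cannot tell whether the numbers pair the mice. With the replicate block 77 genes were called in S1, 133 in S2, 30 in distal, 22 in intercalated, 162 in neutrophil, 53 in B and 77 in T cells, and 1 of the 9 genes each in neutrophil, B and T cells. Angptl4 had a log2 fold change of −1.36 in S1, −0.86 in S2 and 1.87 in distal cells with the block, and the calls it changed were those of Acot1 in neutrophils (2.98) and G0s2 in B (1.95) and T cells (1.51). The block turned the sign of Acot1 in T cells (−0.053), Cpt1a in S2 (0.013), intercalated (0.00068) and neutrophil cells (0.25), and Plin2 in intercalated cells (−0.28).

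Other reversals were of values that were not called. With the stricter gate they were Cpt1a in S1 (−0.040) and B cells (−0.23), Plin2 in S1 (−0.18), myeloid (−0.028) and T cells (0.10), G0s2 in myeloid cells (−0.048), Fabp1 in S1 cells (−0.58), and the differences of Pdk4 between distal and S1 (−1.85) and of Fgf1 between S2 and S1 (0.25). With doublets kept they were Acot1 in T (−0.021) and Cpt1a in B (−0.016) and T cells (−0.041), without the top cell Acot1 in T (−0.015) and Plin2 in myeloid cells (−0.017), without the filter Plin2 in myeloid cells (−0.034), and with DESeq2 Cpt1a in T cells (−0.0077).

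Leaving out each mouse in turn gave 12 to 74 called genes in S1, 3 to 15 in S2, 17 to 36 in distal, 0 to 10 in intercalated, 3 to 133 in myeloid, 9 to 142 in neutrophil, 0 to 10 in B and 0 to 33 in T cells. Of the 9 genes it gave 0 to 1 in S1 and neutrophil cells, 0 to 2 in distal cells, 1 to 2 for distal against S1 and against S2, and 0 to 1 for S2 against S1. Values that changed sign ranged for Acot1 from −1.91 to 0.63 in intercalated cells, −0.19 to 0.19 in T cells and −0.25 to 0.26 for S2 against S1; for Cpt1a from −0.19 to 0.0068 in S2, −0.29 to 0.25 in intercalated, −0.60 to 0.29 in neutrophil, −0.0048 to 0.082 in B and −0.088 to 0.085 in T cells and −0.094 to 0.0041 for distal against S2; for Plin2 from −0.27 to 0.33 in intercalated, −0.012 to 0.031 in myeloid and −0.69 to 0.21 in T cells. For G0s2 they ranged from −0.018 to 2.95 in distal and −0.28 to 1.35 in myeloid cells, −0.67 to 2.46 for distal against S1 and −1.01 to 1.77 against S2. Ppara ranged from −0.23 to 0.15 in S2, Fgf1 from −0.19 to 0.51 in S1, Fabp1 from −0.18 to 0.45 in S1 and −0.070 to 0.47 in S2 cells and −0.025 to 0.12 for S2 against S1, and Pdk4 from −0.0077 to 0.42 for distal against S1. With 2 saline mice, leaving out 1 assumes that the other varies like the FMT mice. Sparse genes outside the proximal tubule rest on few UMIs.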
